A study of Mus musculus with 88 samples.

Results

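The 14 genes described here are all rows of both expression tables whose symbol starts with Pramel or Pramef, out of 55364 rows in each table. They are Pramel, Pramel1, Pramel3, Pramel4, Pramel5, Pramel6, Pramel7, Pramef6, Pramef8, Pramef12, Pramef17, Pramef20, Pramef25 and Pramef12os. The rule that picks them uses the symbol alone and no measured value, but it was set with earlier results of these data known. In the table of mouse embryonic stem cells (mESCs), 11 of the 14 reached 1 TPM (a length-normalised share of a library's transcripts) in at least 1 of 19 libraries, 10 in 2 or more, and Pramef8 and Pramef12 in every library. In the table of late 2-cell embryos, 13 of the 14 reached 1 TPM in at least 1 of 6 libraries and 11 in every library, while Pramel was listed at 0 in all 6.

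PRAME-family genes encode leucine-rich repeat proteins that can act as substrate receptors of ubiquitin ligases built on the scaffold CUL2. The family is expanded in the mouse, where many copies are transcribed in germ cells, oocytes and preimplantation embryos and few in somatic tissues. PRAMEL7 is found in the inner cell mass. It is known to promote degradation of UHRF1, the factor that brings the maintenance methyltransferase DNMT1 to newly copied DNA. PRAMEF12 is known for a role in mouse spermatogonia, and PRAMEL1 is a testis protein of mouse germ cells.

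Total RNA was measured in wild-type male mESCs of a hybrid C57BL/6 / 129 background, grown with serum, LIF, 0.5 µM of the MEK inhibitor PD0325901 and 3 µM of the GSK3 inhibitor CHIR99021, and transfected by lipofection with 1 plasmid each. Groups of 2 libraries carried Obox3 (ES_Obox3), Dux (ES_Dux), Obox5 (ES_Obox5), Obox6 (ES_Obox6) or the empty control (ES_Empty), and 9 groups of 1 library carried another homeobox construct (ES_Obox1, ES_Obox2, ES_Obox4ps27, ES_Obox4ps35, ES_Obox7, ES_Obox8, ES_Crxos1, ES_Crxos2 and ES_Crxos3). In ES_Obox3, ES_Dux and ES_Obox5, 1 of the 2 table columns carries a replicate number that no label of its group holds, so it was placed by the group in its name alone and is called the unnumbered library. Wild-type late 2-cell embryos of BDF1 background came from transfer of a cumulus cell nucleus into an enucleated oocyte followed by injection of 10 ng/µl of Obox3 mRNA (SCNT_Obox3_L2C, 2 libraries) or EGFP mRNA (SCNT_EGFP_L2C, 2 libraries), or from intracytoplasmic sperm injection in BDF1 x BDF1 (ICSI_L2C, 2 libraries, with no injected mRNA named). The plasmid promoter of the RNA libraries, the share of cells transfected and the number of embryos per library are not stated in the labels used here. Nothing in the labels says that the 2 libraries of a group came from separate cultures or collections, so they may be technical replicates. A p-value here rests on the spread within such pairs, pooled over all replicated groups of a table and moderated over genes.

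Each replicated library held high RNA of its labelled construct. The row Obox3-ps5, where Obox3 RNA was counted, had 451 and 263 TPM in ES_Obox3, the Dux row Duxf3 had 1548 and 1979 TPM in ES_Dux, and the rows of Obox5 and Obox6 had 933 to 2031 TPM with their own plasmids, while all 4 rows were at 0 to 0.342 TPM in ES_Empty. In embryos Obox3-ps5 had 56.8 and 62.4 TPM in SCNT_Obox3_L2C and 1.19 and 6.87 TPM in SCNT_EGFP_L2C, beside 118 and 99.5 TPM in ICSI_L2C. TPM give no depth directly. From short genes of known length, a 1-kb gene at 1 TPM rested on about 2.27 to 7.37 reads in mESC libraries and 5.06 to 13.9 reads in embryo libraries, so values near 1 TPM rest on few reads. The 6 pluripotency markers fixed for mESCs (Pou5f1, Sox2, Nanog, Klf4, Zfp42 and Esrrb) were above 0 in all libraries of the replicated mESC groups. In embryos, 5 markers of cumulus cells, the nuclear donors, summed to at most 1.87 TPM per library, and 5 fibroblast markers to at most 0.875 TPM.

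RefSeq on GRCm38.p6 holds 13 of the 14 genes, 6 of them under a newer symbol (Pramef6 as Pramel11, Pramef8 as Pramel12, Pramef12 as Pramel13, Pramef17 as Pramel14, Pramef20 as Pramel15 and Pramef25 as Pramel16). Of the 13, 9 lie on chromosome 4, Pramel6 and Pramel7 are neighbours on chromosome 2, and Pramel and Pramel3 are on the X chromosome. Upstream sequence was available for 12 genes, and the 250 bases before the annotated start were aligned in all 66 pairs. In 64 pairs the identity was 44.3 to 58.3% (median 50.5%), while Pramel4 and Pramel5 were 81.5% identical and Pramef17 and Pramel7 were 78.8% identical. The sequences of these 4 genes are shown because they form the 2 pairs with the highest identity, a choice that used no expression value. Of the 4, Pramel7, Pramel5 and Pramef17 were higher with Obox3 in mESCs, and Pramel4 was higher with Obox3 mRNA in SCNT embryos. Pramef12, also higher with Obox3 in mESCs, is not among them. Pramef17 was also higher with Dux, where Pramel7, with which it is paired here, was not. The Pramel4 result did not pass in 9 of 11 alternative fits. Each sequence runs 5′ to 3′ in the gene's direction and ends at the base before the annotated start. Capitals mark the longest stretches that the 2 genes of a pair share without a mismatch, which were 1 stretch of 111 bases for Pramel4 and Pramel5 and 2 stretches of 23 bases each for Pramef17 and Pramel7. The windows are chr2:87492419-87492668 on the minus strand, chr4:143994370-143994619 on the minus strand, chr4:144058875-144059124 on the plus strand and chr4:144280467-144280716 on the minus strand, all from RefSeq on GRCm38.p6.
Pramel7: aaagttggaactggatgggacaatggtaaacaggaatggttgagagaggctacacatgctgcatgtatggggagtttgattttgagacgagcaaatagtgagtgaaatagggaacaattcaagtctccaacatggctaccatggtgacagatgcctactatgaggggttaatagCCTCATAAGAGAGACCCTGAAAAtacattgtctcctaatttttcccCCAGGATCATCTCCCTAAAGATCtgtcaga
Pramef17: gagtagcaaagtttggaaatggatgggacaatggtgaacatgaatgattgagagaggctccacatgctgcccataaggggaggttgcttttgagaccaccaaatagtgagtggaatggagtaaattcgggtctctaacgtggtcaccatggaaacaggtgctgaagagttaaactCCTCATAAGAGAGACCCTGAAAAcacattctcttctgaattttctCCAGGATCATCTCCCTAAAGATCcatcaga
Pramel4: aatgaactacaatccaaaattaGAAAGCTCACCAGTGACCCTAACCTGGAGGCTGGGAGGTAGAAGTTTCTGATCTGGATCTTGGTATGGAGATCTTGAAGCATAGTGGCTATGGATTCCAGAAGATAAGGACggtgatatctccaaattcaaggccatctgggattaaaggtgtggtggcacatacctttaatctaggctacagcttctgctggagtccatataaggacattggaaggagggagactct
Pramel5: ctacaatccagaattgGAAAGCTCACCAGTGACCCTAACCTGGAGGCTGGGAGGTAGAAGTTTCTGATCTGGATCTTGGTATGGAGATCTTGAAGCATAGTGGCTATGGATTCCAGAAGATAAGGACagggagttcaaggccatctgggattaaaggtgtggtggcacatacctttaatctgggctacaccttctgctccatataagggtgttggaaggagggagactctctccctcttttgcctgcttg
The homeodomain core TAATCC, searched on both strands, matched in 3 of the 12 windows (Pramef6, Pramel4 and Pramel5) and in 6.25% of 32851 RefSeq windows of the same length. In Pramel4 and Pramel5 the match reads ggatta in the sequences above and starts 88 and 103 bases before the annotated start, outside the capitals. The Dux-type double homeodomain site, also searched on both strands, matched in 0 of the 12 windows and in 0.0304% of all windows. A match is a description of these letters only.

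In mESCs with the empty plasmid the family was low apart from 2 genes of chromosome 4. Pramef12 stood at 6.26 and 2.87 TPM and Pramef8 at 5.40 and 4.32 TPM in ES_Empty, and together they made up most of a family sum of 14.4 and 8.58 TPM. The 9 single libraries had family sums of 9.49 to 16.3 TPM. Among them Pramef12 ranged from 3.71 to 5.83 TPM and Pramef8 from 3.58 to 6.14 TPM. Pramel1 passed 1 TPM in 5 of the 9, with a highest value of 2.20 TPM in ES_Obox4ps27. Pramel7 passed 1 TPM in 1 of the 9, ES_Obox8, at 2.69 TPM, against a median of 0.261 TPM over the 9. With 1 library per group these values have no replicate check.

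**Figure D1:**
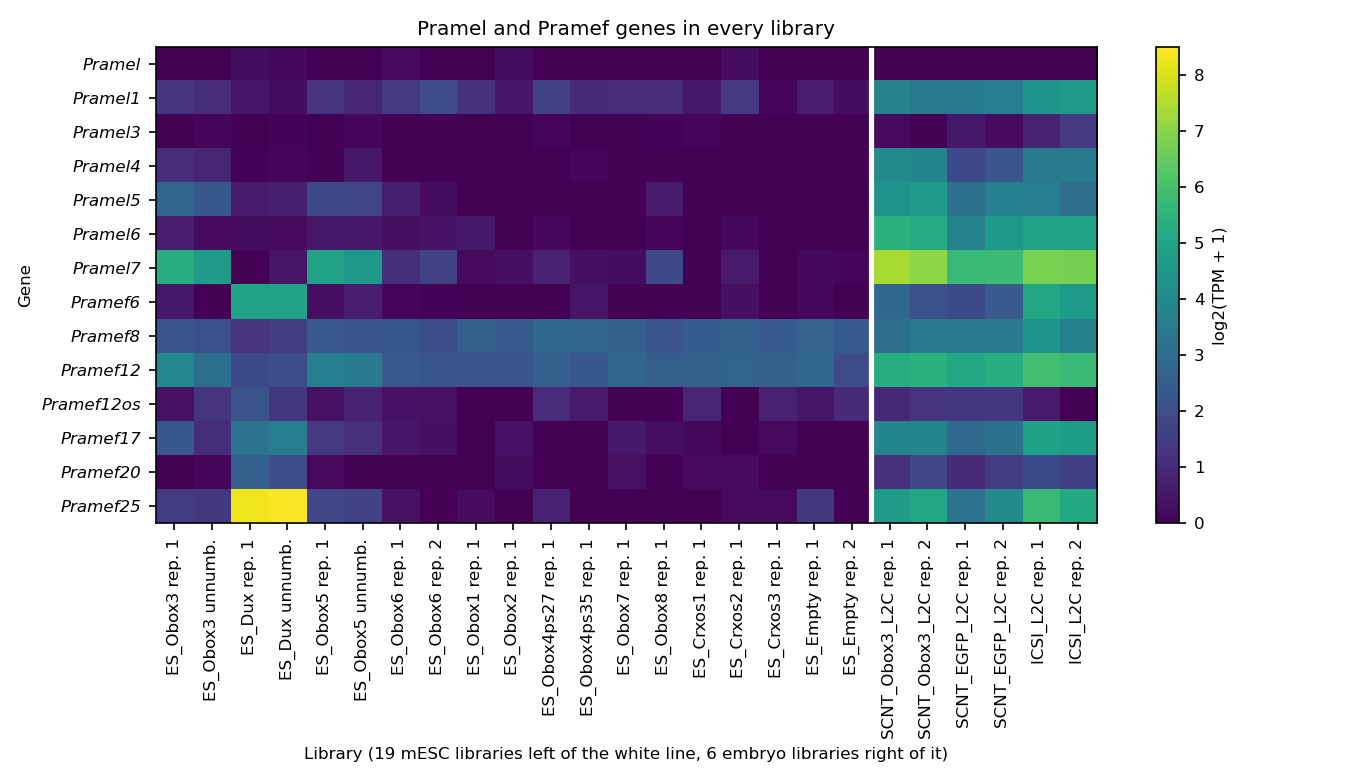
Each cell is 1 gene (rows) in 1 library (columns), coloured by log2(TPM + 1); libraries of 1 group stand side by side, and levels should be compared within a table only. Pramel7 is bright in ES_Obox3, ES_Obox5 and all 6 embryo libraries, Pramef25 and Pramef6 are bright in ES_Dux, and Pramef8 and Pramef12 are above 0 in every library.

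Different genes were high in different mESC groups, and Pramel7 led those that were high with Obox3 and Obox5. Pramel7 (ENSMUSG00000025839.3, chr2:87489088-87492418) had 38.6 and 24.7 TPM in ES_Obox3 and 29.1 and 22.4 TPM in ES_Obox5, against 0.126 and 0.0961 TPM in ES_Empty. Both groups stood clear of ES_Empty in every library, and Pramel7 alone supplied 53.5 and 53.6% of the family sum in ES_Obox3. The log2 fold change on the log2(TPM + 1) scale was 4.85 (SE 0.29, 95% interval 4.18 to 5.51) for ES_Obox3 against ES_Empty, with a limma adjusted p of 5.25e-05. For ES_Obox5 against ES_Empty it was 4.58 (SE 0.29, limma adjusted p = 7.37e-05). Pramel6, its neighbour on chromosome 2, had 0.562 and 0.195 TPM in ES_Obox3 and 0.448 and 0.473 TPM in ES_Obox5, was listed at 0 in both ES_Empty libraries, and was too low to be tested in mESCs.

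Pramel5 was also higher with both Obox3 and Obox5. It had 5.60 and 4.07 TPM in ES_Obox3 and 2.69 and 2.40 TPM in ES_Obox5, and was listed at 0 in both ES_Empty libraries. The differences passed the test in both comparisons (limma adjusted p = 0.000314 and 0.00205), and no fold is given against a group listed at 0. Pramef17 had 3.94 and 1.16 TPM in ES_Obox3 and 1.73 and 1.24 TPM in ES_Obox5, and was again listed at 0 in both ES_Empty libraries. Its limma adjusted p was 0.00903 with Obox3, where the fitted difference, which depends on the pseudocount, was 1.71 on the log2(TPM + 1) scale, or 1.11 without ES_Obox3 replicate 1. With Obox5 it was 0.0423, and the adjusted p ran from 0.0027 to 0.177 over 14 alternatives, of which 9 lost the call. Those 9 were the fit with no filter and the fits without ES_Dux, ES_Obox5, ES_Obox6 or ES_Empty, leaving out either library of each.

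Pramef12 had 14.5 and 7.59 TPM in ES_Obox3, against 6.26 and 2.87 TPM in ES_Empty. The 2 groups did not overlap, though the lower ES_Obox3 library was only slightly above the higher ES_Empty library. Its log2 fold change was 1.12 (SE 0.34, limma adjusted p = 0.0366), or 1.63 (limma adjusted p = 0.00196) after median-ratio scaling. The adjusted p ran from 0.00196 to 0.197 over 14 alternatives, and 6 of them lost the call, among them the fit with no filter on low values. Without ES_Obox3 replicate 1 the log2 fold change was 0.70 and without ES_Empty replicate 2 it was 0.67, and the call was also lost without ES_Dux replicate 1 and without either ES_Obox5 library. With Obox5, Pramef12 had 11.6 and 10.3 TPM and a log2 fold change of 1.17 (limma adjusted p = 0.0527), which became 1.39 (limma adjusted p = 0.00569) after scaling.

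In all, 4 of the 14 genes were higher in ES_Obox3 than in ES_Empty and 0 were lower, where 4.67% of 20355 genes tested were called higher and 13.6% lower. After median-ratio scaling, which moved the median of all genes from -0.42 to 0.00, 5 were higher and 0 lower, with Pramef25 added, where 7.77% and 3.75% of all genes were. A call needed a limma adjusted p under 0.05, adjusted over all genes tested, and a log2 fold change of 1 or more in size. The 10 members tested had a median log2 fold change of 0.75, beside -0.42 over all genes tested. At an unadjusted p under 0.05, 5 of the 10 were higher and 0 were lower. The share of all genes at an unadjusted p under 0.05 is not given for any comparison. Counts at that threshold, here and below, therefore only describe the genes counted. With Obox5, 3 were higher and 0 lower, where 4.79% of all genes were called higher and 5.47% lower, and 5 were higher and 0 lower at an unadjusted p under 0.05. After scaling 4 were higher and 0 lower, where 6.09% and 2.39% of all genes were. No ES_Empty library reached 1 TPM for 6 of the 10, so these passed the filter on low values only through groups where they were higher. Pramel7 and Pramel1 passed through ES_Obox3, ES_Obox5 and ES_Obox6, Pramel5 through ES_Obox3 and ES_Obox5, Pramef17 through those and ES_Dux, and Pramef6 and Pramef20 through ES_Dux. They include 3 of the 4 genes called with Obox3 and all 3 called with Obox5. The counts in these and the other mESC comparisons describe rather than support a shift of the family. The pluripotency markers were lower at the same time: their summed TPM was 334 to 454 in ES_Obox3 and 460 to 463 in ES_Obox5, against 957 to 1108 in ES_Empty, with 5 and 4 of the 6 called lower, and 3 in each after scaling. These markers were also lower in ES_Obox6, at 461 to 557 TPM with 3 called lower, where 1.99% of all genes were. In ES_Dux they were at 314 to 337 TPM with 5 called lower, where 44.4% of all genes were. After scaling 3 were called lower in ES_Obox6 and in ES_Dux as well, where 1.32% and 2.14% of all genes were. Their part in the results on Pramel7, Pramel5, Pramef17 and Pramef12 was not tested. In bulk libraries, fewer cells with a transcript and less RNA per cell cannot be told apart.

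**Figure D2:**
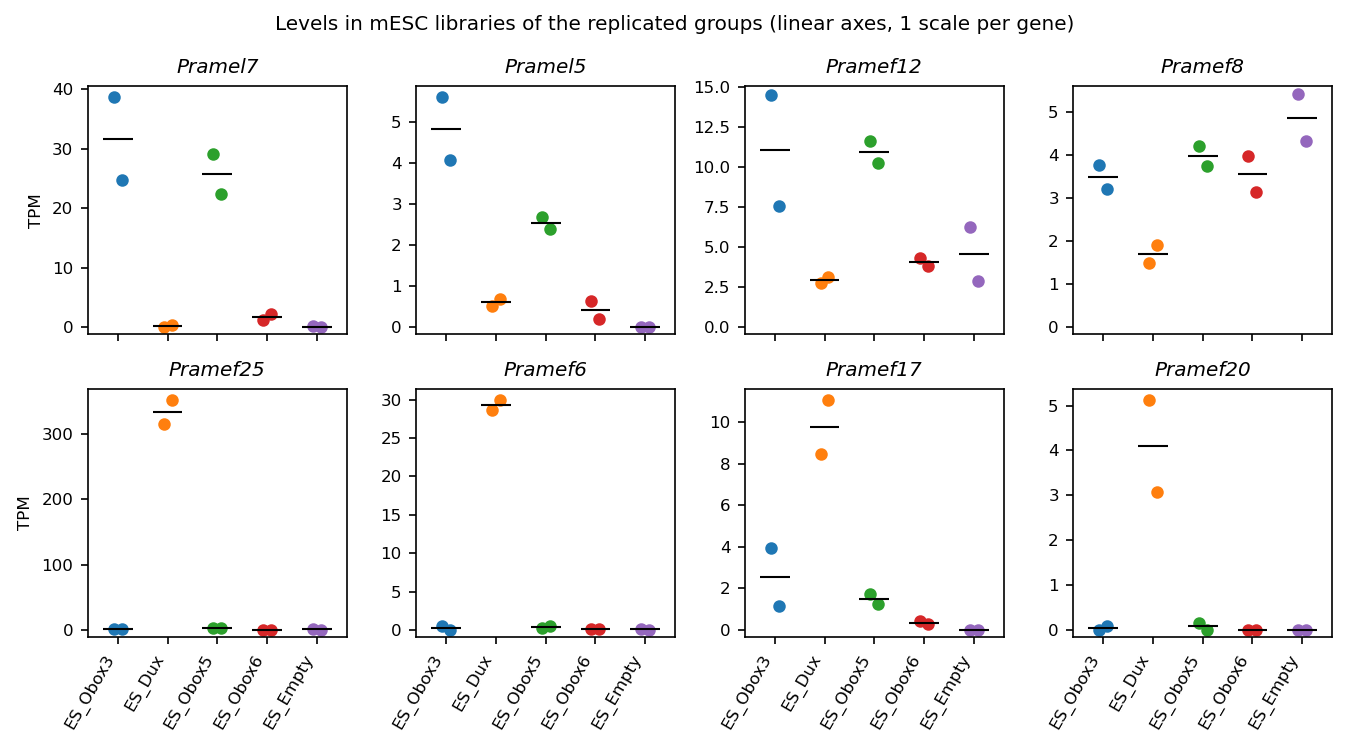
TPM of 8 genes (panels, each with its own linear axis) in the 5 replicated mESC groups; points are libraries and lines are group means, n = 2 each. Pramel7 and Pramel5 are highest in ES_Obox3 and ES_Obox5, while Pramef25, Pramef6, Pramef17 and Pramef20 are highest in ES_Dux.

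With Dux a different set was high, and Pramef25 (ENSMUSG00000078511.3, chr4:143948183-143951016) stood out. It had 315 and 352 TPM in ES_Dux, against 1.59 and 0 TPM in ES_Empty, and made up 86.0 and 87.0% of the family sum of 367 and 405 TPM in ES_Dux. The log2 fold change was 7.70 (SE 0.38, 95% interval 6.82 to 8.57, limma adjusted p = 6.21e-06). Pramef6 had 28.6 and 29.9 TPM in ES_Dux, against 0.129 and 0 TPM in ES_Empty, a log2 fold change of 4.83 (SE 0.24, limma adjusted p = 5.27e-06). Pramef17 had 8.46 and 11.1 TPM and Pramef20 had 5.12 and 3.07 TPM in ES_Dux, and both were listed at 0 in ES_Empty (limma adjusted p = 0.000242 and 0.00066). Pramel7 was not among them: it had 0 and 0.375 TPM in ES_Dux, a log2 difference from ES_Empty of 0.08 (95% interval -0.59 to 0.74). Nor was Pramef12, at 2.77 and 3.11 TPM in ES_Dux against 6.26 and 2.87 TPM in ES_Empty (log2 difference -0.43, limma adjusted p = 0.303).

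Pramef8 fell on the deposited scale, to 1.49 and 1.92 TPM in ES_Dux, against 5.40 and 4.32 TPM in ES_Empty (log2 fold change -1.12, limma adjusted p = 0.00147). This did not hold on another scale: the median log2 fold change of all genes in ES_Dux was -0.97, and after median-ratio scaling that of Pramef8 was -0.05 (limma adjusted p = 0.854). It was -0.98 without ES_Empty replicate 1. So 4 of the 14 genes were higher in ES_Dux, where 4.12% of all genes were called higher, and 1 was lower, where 44.4% were. Pramef6 and Pramef20 passed the filter on low values only through ES_Dux, and Pramef17 did not reach 1 TPM in ES_Empty. The count therefore describes rather than supports a shift of the family. After scaling Pramef12os and Pramel5 were also called, making 6 higher and 0 lower, where 6.98% of all genes were called higher and 2.14% lower. Pramef12os, by its symbol a transcript opposite Pramef12, had 3.50 and 1.57 TPM in ES_Dux, against 0.350 and 1.07 TPM in ES_Empty. No label states the strand setting of the counting, so its reads and those of Pramef12 cannot be told apart. Markers of the 2-cell embryo moved with these genes. The 4 listed beside Duxf3, which is left out here because it holds the RNA of the transfected construct, are Zscan4c, Zscan4d, Zfp352 and Tcstv3. Their sum was 1792 to 1997 TPM in ES_Dux, with all 4 above 0, against 0.135 to 1.77 TPM in ES_Empty, with Tcstv3 at 0 in both libraries and Zfp352 in 1. In ES_Obox3 the same sum was 0.944 to 2.69 TPM. The part of these markers in the result was not tested.

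**Figure D3:**
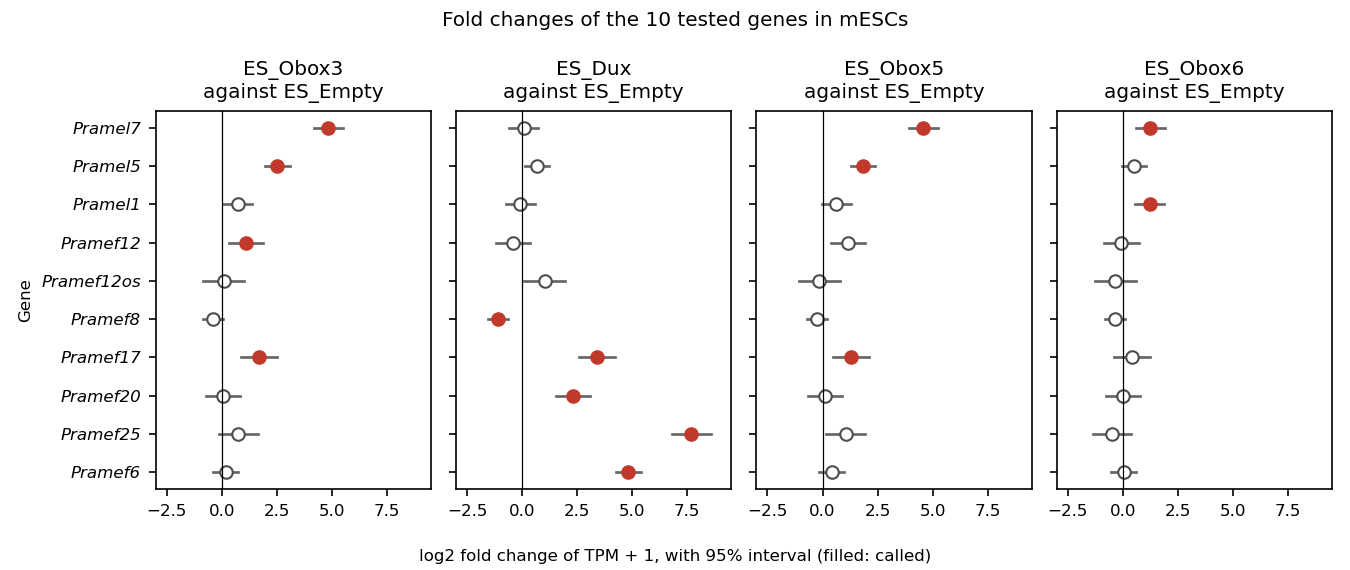
Log2 fold changes of TPM + 1 for the 10 genes tested (rows), against ES_Empty, in 4 transfected groups (panels), with 95% intervals from limma; filled points passed the test. Pramel7 and Pramel5 are filled with Obox3 and Obox5, Pramef25, Pramef6 and Pramef20 only with Dux, and Pramef17 with all 3; the panels share the ES_Empty libraries.

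The direct comparison of ES_Obox3 with ES_Dux split the family into 3 genes higher and 4 lower, where 20.3% of all genes were called higher and 3.42% lower. Of the lower genes, Pramef6 and Pramef20 were tested only because they reached 1 TPM in ES_Dux. Pramel7 was higher by 4.77 on the log2 scale (SE 0.29, limma adjusted p = 1.71e-05), Pramel5 by 1.85 (limma adjusted p = 0.000669) and Pramef12 by 1.55 (limma adjusted p = 0.00811). The last became 0.91 after scaling, when the median of all genes moved from 0.48 to 0, and 1.13 without ES_Obox3 replicate 1 (limma adjusted p = 0.0626). Pramef25 fell by 6.93 on the log2 scale, Pramef6 fell by 4.65, Pramef20 fell by 2.25 and Pramef17 fell by 1.71 in ES_Obox3 relative to ES_Dux (limma adjusted p from 6.8e-06 to 0.00636). For Pramef17 this was a difference of -1.11 without the unnumbered ES_Obox3 library. After scaling 2 were higher and 5 lower, with Pramef12os added, where 9.21% and 8.30% of all genes were. Pramef17 was above 1 TPM in both groups, at 3.94 and 1.16 TPM in ES_Obox3 and 8.46 and 11.1 TPM in ES_Dux.

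Between ES_Obox3 and ES_Obox5, 0 of the 10 genes tested passed in either direction, in a comparison where 0.0393% of all genes were called higher and 0.0147% lower. After scaling the count was again 0 in each direction, where 0.0688% and 0.0197% of all genes were called by limma. At an unadjusted p under 0.05 there was 1 higher and 0 lower, and no other tool was run. The gene was Pramel5, at 5.60 and 4.07 TPM in ES_Obox3 against 2.69 and 2.40 TPM in ES_Obox5 (log2 difference 0.71, 95% interval 0.15 to 1.26, limma adjusted p = 0.383). For Pramel7 the difference was 0.27 with an interval from -0.40 to 0.93, and for Pramef12 it was -0.05 with an interval from -0.82 to 0.73.

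With Obox6 the gains were small and did not hold under most alternatives. Pramel7 had 1.16 and 2.19 TPM in ES_Obox6, against 0.126 and 0.0961 TPM in ES_Empty (log2 fold change 1.24, SE 0.29, limma adjusted p = 0.0479). Pramel1 had 1.68 and 2.84 TPM in ES_Obox6, against 0.577 and 0.220 TPM in ES_Empty (log2 fold change 1.21, SE 0.29, limma adjusted p = 0.0488). These 2 of 14 genes were called higher and 0 lower, where 2.39% of all genes were called higher and 1.99% lower, and 2 were higher and 0 lower at an unadjusted p under 0.05. After scaling 1, Pramel1, was higher and 0 were lower, where 2.80% and 1.32% of all genes were. The adjusted p of Pramel7 ran from 0.037 to 0.242 over 15 alternatives and 12 lost the call. That of Pramel1 ran from 0.0411 to 0.29, and 14 of 15 lost the call. Leaving out any 1 library of ES_Obox6, ES_Empty, ES_Dux or ES_Obox5 was enough to lose both, and without ES_Obox6 replicate 2 the log2 fold changes were 0.96 and 0.95.

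Set directly against ES_Obox6, ES_Obox3 had 3 genes higher and 0 lower, where 2.52% of all genes were called higher and 6.61% lower, and 5 were higher and 0 lower at an unadjusted p under 0.05. Pramel7 was higher by 3.61 (SE 0.29, limma adjusted p = 0.00042) and Pramel5 by 2.04 (limma adjusted p = 0.00206). Pramef17, higher by 1.28 (limma adjusted p = 0.0465), lost its call in 10 of 14 alternatives, and was higher by 0.69 without ES_Obox3 replicate 1. It also lost it with no filter and without any 1 library of ES_Dux, ES_Obox5, ES_Obox6 or ES_Empty. After scaling Pramef12 and Pramef25 were called as well, where 4.83% of all genes were called higher and 2.63% lower.

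Late 2-cell embryos held high levels of the family. Their table and that of the mESCs were each normalised on their own and were not tested against each other. The family sum was 351 and 322 TPM in SCNT_Obox3_L2C, 152 and 186 TPM in SCNT_EGFP_L2C, and 378 and 333 TPM in ICSI_L2C. TPM are per length, so genes of 1 library can be ranked: Pramel7 was the highest member in all 6 embryo libraries and supplied 28.9 to 47.9% of the sum. The order below it differed between groups. Pramef12 averaged 40.0 ± 2.29 TPM and Pramel6 39.2 ± 3.71 TPM in SCNT_Obox3_L2C, where their libraries overlapped. In SCNT_EGFP_L2C Pramef12 averaged 37.6 ± 3.84 TPM and Pramel6 17.6 ± 6.73 TPM, and in ICSI_L2C Pramef12 averaged 57.8 ± 5.28 TPM, Pramef25 43.1 ± 11.8 TPM and Pramel6 29.6 ± 0.152 TPM (SD, n = 2 each).

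Obox3 mRNA in SCNT embryos was accompanied by higher Pramel4, the 1 member that passed the test. Pramel4 had 15.3 and 13.6 TPM in SCNT_Obox3_L2C and 2.66 and 3.81 TPM in SCNT_EGFP_L2C, beside 10.6 and 10.5 TPM in ICSI_L2C. Its log2 fold change against SCNT_EGFP_L2C was 1.88 (SE 0.21, 95% interval 1.38 to 2.38, limma adjusted p = 0.0462). Of 18252 genes tested, 0.11% were called higher and 0.0438% lower, and among the 12 members tested 0 were lower, with 6 higher and 0 lower at an unadjusted p under 0.05. The adjusted p of Pramel4 ran from 0.0365 to 0.227 over 11 alternatives while its log2 fold change stayed between 1.68 and 2.15, and 9 lost the call. These included leaving out any 1 of the 6 embryo libraries.

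Pramel7 had 168 and 132 TPM in SCNT_Obox3_L2C and 52.4 and 55.3 TPM in SCNT_EGFP_L2C, beside 109 and 107 TPM in ICSI_L2C. Every SCNT_Obox3_L2C library was above every library of the other groups, with a log2 fold change of 1.45 against SCNT_EGFP_L2C (SE 0.18, 95% interval 1.02 to 1.88). The limma adjusted p was 0.0576, and 0.0374 after scaling, when 2 members were called higher and 0 lower, where 1.41% and 0.175% of all genes were. Pramel6 had 41.8 and 36.5 TPM in SCNT_Obox3_L2C, against 12.9 and 22.4 TPM in SCNT_EGFP_L2C (log2 difference 1.15, limma adjusted p = 0.111). Pramel5 had 19.3 and 24.3 TPM in SCNT_Obox3_L2C, against 8.31 and 11.7 TPM in SCNT_EGFP_L2C (log2 difference 1.06, limma adjusted p = 0.129). In all, 6 of the 12 genes tested, Pramel4, Pramel5, Pramel6, Pramel7, Pramef17 and Pramef25, were higher in both SCNT_Obox3_L2C libraries than in both SCNT_EGFP_L2C libraries, where 25.4% of all genes were. Pramef12os alone was lower in both, where 26.0% of all genes were. The 12 had a median log2 difference of 0.58, beside -0.03 over all genes tested. Pramef12 and Pramel1 had log2 differences of 0.09 (95% interval -0.32 to 0.49) and 0.12 (95% interval -0.36 to 0.60).

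**Figure D4:**
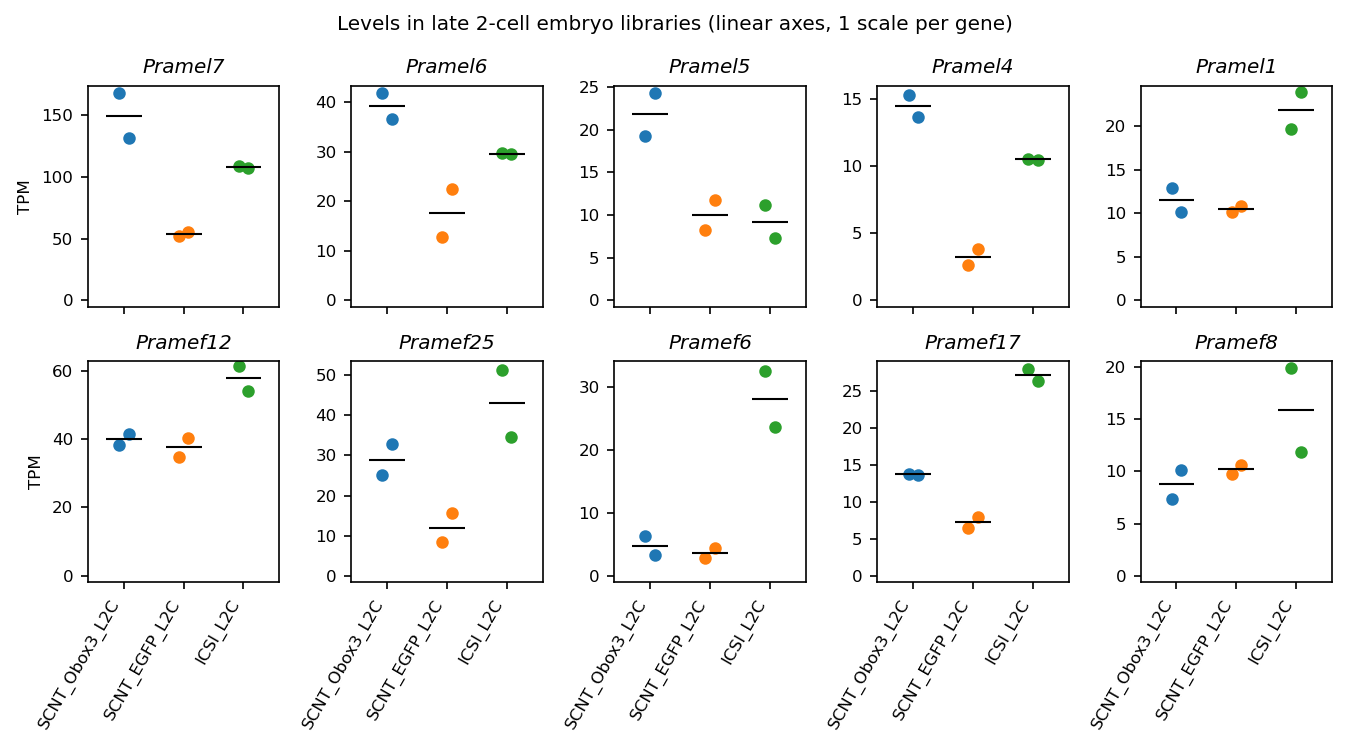
TPM of 10 genes (panels, each with its own linear axis) in the 3 embryo groups; points are libraries and lines are group means, n = 2 each. Pramel7, Pramel6, Pramel5 and Pramel4 are highest in SCNT_Obox3_L2C, while Pramef6, Pramef17, Pramef12, Pramel1 and Pramef25 are highest in ICSI_L2C.

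Without Obox3 mRNA, cloned embryos were lower than fertilised ones in 4 members. Pramef6 had 2.75 and 4.38 TPM in SCNT_EGFP_L2C, against 32.7 and 23.7 TPM in ICSI_L2C (log2 fold change -2.68, SE 0.34, limma adjusted p = 0.00429). Pramef17 had 6.41 and 7.98 TPM in SCNT_EGFP_L2C, against 27.9 and 26.4 TPM in ICSI_L2C (log2 fold change -1.79, SE 0.18, limma adjusted p = 0.00258). Pramef25 had 8.33 and 15.6 TPM in SCNT_EGFP_L2C, against 51.4 and 34.7 TPM in ICSI_L2C (log2 fold change -1.80, SE 0.33, limma adjusted p = 0.0134), and its call was lost without SCNT_EGFP_L2C replicate 1 or without ICSI_L2C replicate 1 (limma adjusted p = 0.0592 and 0.0601, out of a range from 0.0139 to 0.0601 over 11 alternatives). Pramel4 fell by 1.46 on the log2 scale (SE 0.21, limma adjusted p = 0.00604). In all, 4 of the 14 genes were lower and 0 were higher in SCNT_EGFP_L2C, where 12.5% of all genes were called lower and 4.80% higher. After scaling the counts were the same, where 8.82% and 6.10% of all genes were. At an unadjusted p under 0.05, 8 of the 12 tested were lower and 1, Pramef12os, was higher. The shares of all genes above are at the stricter threshold of a call and cannot be set beside these counts. Pramel7 was lower by just under the fold required, with a log2 difference of -0.99 (limma adjusted p = 0.0116).

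The 12 genes tested had a median log2 difference of -0.88 in SCNT_EGFP_L2C, beside -0.20 over all genes tested. The 2-cell markers, here with Duxf3, also differed: their sum was 99.7 to 170 TPM in SCNT_Obox3_L2C and 67.2 to 92.4 TPM in SCNT_EGFP_L2C, against 254 to 383 TPM in ICSI_L2C. The 5 oocyte markers Gdf9, Bmp15, Zp3, Zar1 and Oosp1 summed to 314 to 316 TPM in SCNT_Obox3_L2C and 373 to 401 TPM in SCNT_EGFP_L2C, against 485 to 557 TPM in ICSI_L2C. No marker of either list was at 0 in any embryo library, and their part in these results was not tested.

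Embryos with Obox3 mRNA differed from fertilised embryos in 2 members. Pramef6 was lower, at 6.33 and 3.28 TPM in SCNT_Obox3_L2C against 32.7 and 23.7 TPM in ICSI_L2C (log2 fold change -2.36, SE 0.34, limma adjusted p = 0.0122), a call lost without ICSI_L2C replicate 1 (limma adjusted p = 0.0605, in a range from 0.0146 to 0.0605 over 11 alternatives). Pramel5 was higher, at 19.3 and 24.3 TPM in SCNT_Obox3_L2C against 11.2 and 7.26 TPM in ICSI_L2C (log2 fold change 1.17, SE 0.27, limma adjusted p = 0.0405). The adjusted p of Pramel5 ran from 0.0282 to 0.17 over 11 alternatives, 9 of which lost the call, among them leaving out any 1 of the 6 embryo libraries. These were 1 gene lower and 1 higher of 14, where 6.31% of all genes were called lower and 2.80% higher, and after scaling the counts were the same, where 3.85% and 4.05% of all genes were. At an unadjusted p under 0.05, 5 of the 12 tested were lower and 3 higher. The comparisons of SCNT_Obox3_L2C with SCNT_EGFP_L2C and of SCNT_EGFP_L2C with ICSI_L2C share the SCNT_EGFP_L2C libraries. The log2 difference in the first and then in the second was 0.32 and -2.68 for Pramef6, 1.88 and -1.46 for Pramel4, and 1.45 and -0.99 for Pramel7.

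Along chromosome 4 the 9 genes lie between 143394441 and 144408467 (GRCm38.p6). Pramef6, Pramef25 and Pramef17 start 499.8, 553.7 and 596.7 kb from the start of Pramel1 and are neighbours among the 9. All 3 were higher in ES_Dux than in ES_Empty and lower in SCNT_EGFP_L2C than in ICSI_L2C. Pramel4, 664.7 kb from Pramel1, was lower in the same embryo comparison, and in ES_Dux it stayed at 0.0567 and 0.0804 TPM, against 0 in both ES_Empty libraries. Its highest mESC values were in ES_Obox3, at 1.13 and 0.844 TPM, and it was too low to be tested in mESCs. Pramef20, 978.3 kb from Pramel1, was higher in ES_Dux as well (log2 difference 2.32, limma adjusted p = 0.00066), and in SCNT_EGFP_L2C its log2 difference from ICSI_L2C was -0.52 and was not called. RefSeq places 14 further PRAME-like genes on chromosome 4 that stand in the tables under other symbols. Of these, 11 lie within the span and 1 between Pramef6 and Pramef17. In ES_Dux 10 of the 14 were higher than in ES_Empty, where 4.12% of all genes tested were. Of all rows under other symbols, at most 1 reached 1 TPM in an ES_Empty library, so this count only describes them. Pramef8, next to Pramel1 and near the other end of the span from Pramef12, was the member called lower with Dux on the deposited scale. Whether position plays a part in these values was not tested.

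**Figure D5:**
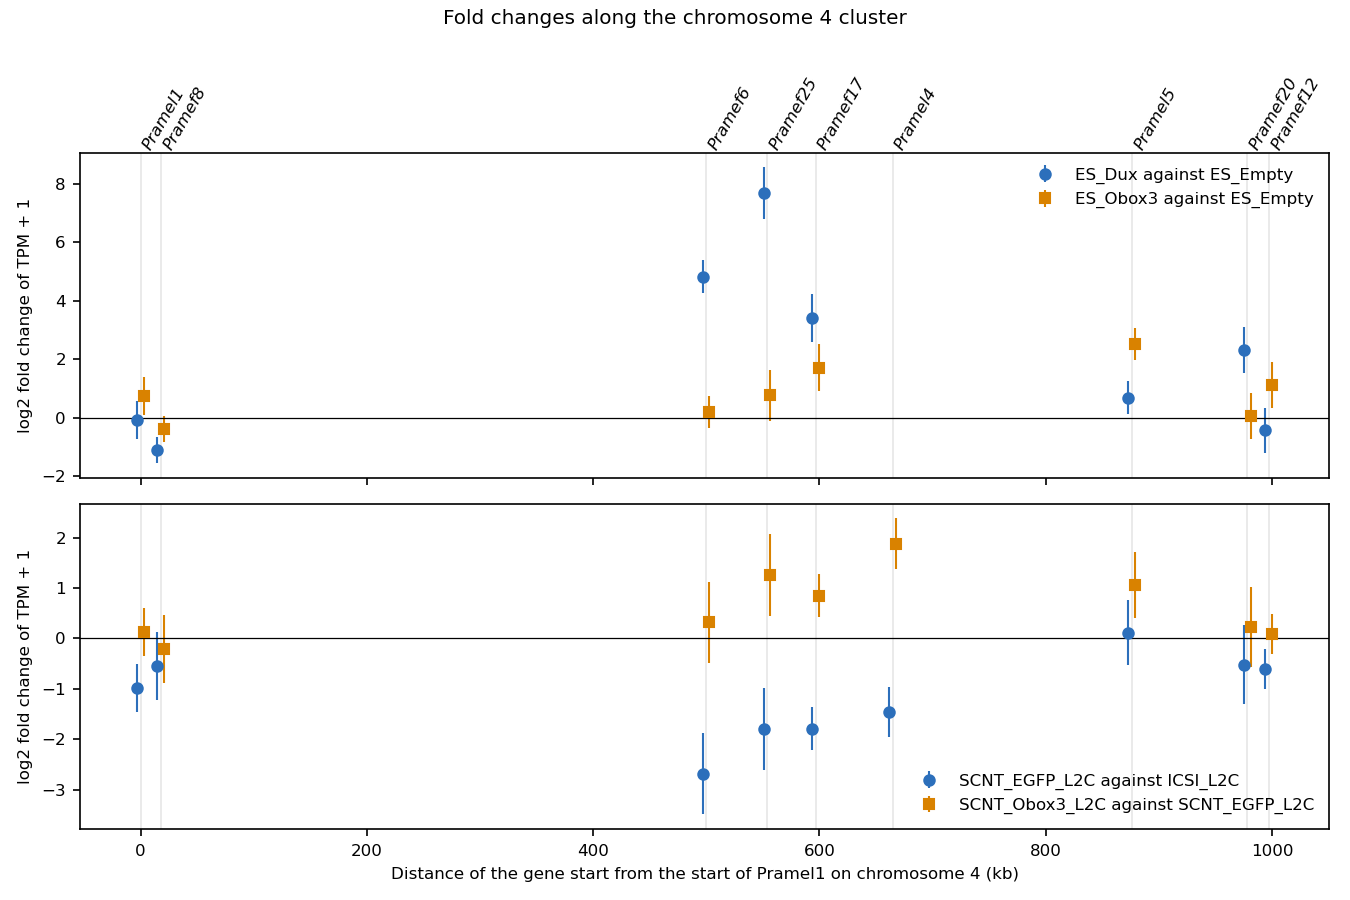
Log2 fold changes of TPM + 1 with 95% intervals from limma for the genes of chromosome 4 that were tested, placed by the distance of the gene start from that of Pramel1 in kb; circles and squares are the comparisons named in each panel, and each pair shares control libraries. In the upper panel the ES_Dux circles peak at Pramef25 (7.70), and in the lower panel the SCNT_EGFP_L2C circles are lowest at Pramef6 (-2.68); Pramel4 was not tested in mESCs.

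Another 22 rows hold genes that RefSeq now names Pramel but that stand in the tables under other symbols, found through RefSeq synonyms. Of these 22, 14 were tested in mESCs and 18 in embryos. In mESCs 12 of the 22 reached 1 TPM in each ES_Dux library, 3 in each ES_Obox3 library, and 1 and 0 in the ES_Empty libraries. Most of the 14 thus passed the filter on low values only through groups other than ES_Empty. The mESC counts of these rows describe rather than support a shift. In ES_Dux 12 were higher than in ES_Empty, where 4.12% of all genes were, and 0 lower, where 44.4% were. Among them were Gm13119 with 242 ± 21.6 TPM against 0.641 ± 0.907 TPM and Gm12794 with 211 ± 2.61 TPM against 0.0925 ± 0.131 TPM (SD, n = 2 each). In ES_Obox3 3 were higher, where 4.67% of all genes were, among them Gm13128 with 3.34 ± 0.112 TPM against 0.308 ± 0.435 TPM in ES_Empty. In ES_Obox5 1 was higher, where 4.79% of all genes were, and in ES_Obox6 0 were by limma, where 2.39% were, with 0 at an unadjusted p under 0.05. In SCNT_EGFP_L2C 7 were lower than in ICSI_L2C, where 12.5% of all genes were, with B020004J07Rik at 6.22 ± 1.87 TPM against 79.2 ± 13.0 TPM. Between SCNT_Obox3_L2C and SCNT_EGFP_L2C 0 were called by limma, with 5 higher and 0 lower at an unadjusted p under 0.05. After scaling 3 were higher, where 1.41% of all genes were. Oog1, Oog2, Oog3 and Oog4, oocyte-expressed relatives of PRAME, were all too low to test in mESCs. In embryos Oog3 was the highest of them, at 256 and 273 TPM in SCNT_Obox3_L2C, 275 and 393 TPM in SCNT_EGFP_L2C and 566 and 627 TPM in ICSI_L2C. Of the 4 tested, 1 was lower in SCNT_EGFP_L2C than in ICSI_L2C (Oog4) and 1 in SCNT_Obox3_L2C than in ICSI_L2C (Oog3), and neither call held after scaling.

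Of 11 genes of the CUL2 ligase and of DNA methylation, 1 was higher and 4 lower in ES_Obox3 than in ES_Empty, where 4.67% and 13.6% of all genes were. After scaling 3 were higher and 1 lower, where 7.77% and 3.75% of all genes were. The median log2 fold change of the 11 was -0.72 in ES_Obox3 and -1.27 in ES_Dux on the deposited scale, and -0.09 and 0.09 after scaling. Lower calls on the deposited scale were not particular to ES_Obox3. In ES_Dux 0 were higher and 7 lower, where 4.12% and 44.4% of all genes were. After scaling 0 were higher and 2 lower in ES_Dux, where 6.98% and 2.14% of all genes were. In ES_Obox5 2 were higher and 1 lower, where 4.79% and 5.47% of all genes were. In ES_Obox6 1 was higher and 1 lower, where 2.39% and 1.99% of all genes were. At an unadjusted limma p under 0.05, 6 were lower in each of ES_Obox3, ES_Obox5 and ES_Obox6 and 11 in ES_Dux, with 2, 3, 2 and 0 higher. Uhrf1 RNA, whose protein is the known PRAMEL7 substrate, was at 56.7 ± 18.4 TPM in ES_Obox3 and 147 ± 34.2 TPM in ES_Empty (SD, n = 2 each). Its log2 fold change was -1.38 (limma adjusted p = 0.00556), and -0.74, below the fold required, after scaling. Uhrf1 was also among the 11 genes lower in ES_Dux on the deposited scale at an unadjusted limma p under 0.05. Pramel7 had 0 and 0.375 TPM in ES_Dux. A link between Uhrf1 and Pramel7 RNA was not tested. Dnmt3a, a de novo methyltransferase, had 19.2 and 14.0 TPM in ES_Obox3, against 6.42 and 4.17 TPM in ES_Empty, and kept its call after scaling. Cul2 itself was not called in ES_Obox3, ES_Obox5 or ES_Obox6, and in ES_Dux its log2 fold change was -1.27, or 0.09 after scaling. In embryos 0 of the 11 were called by limma between SCNT_Obox3_L2C and SCNT_EGFP_L2C, with 2 higher and 2 lower at an unadjusted p under 0.05.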

How the data were processed

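Gene-level TPM were deposited by the authors in 1 table for mESCs and 1 for embryos. Total RNA was made into stranded libraries, per the labels' protocols, and featureCounts 1.6.5, HISAT2 and the build mm10 are listed, per the submitters' processing notes, without their roles. How reads that map to several copies were counted, and the strand setting, are not given in any source used here, so near-identical family members are uncertain. Of 88 samples, 63 were not analysed here.

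From the deposited TPM, limma 3.58.1 (R 4.3.3, statmod 1.5.0) was fitted to log2(TPM + 1) with a variance trend and robust moderation. The mESC fit held 10 libraries and 20355 genes with at least 1 TPM in at least 2 libraries, the embryo fit 6 libraries and 18252 genes. P-values were adjusted by Benjamini-Hochberg over all genes tested. A fold change on this scale understates the change of low genes. Tested on simulated data, the fit recovered 56% of genes changed by 1.5 on the log2 scale in ES_Obox3 against ES_Empty over 18025 genes. It recovered 34% in SCNT_Obox3_L2C against SCNT_EGFP_L2C over 17112 genes. False calls numbered 8 in the first and 6 in the second. Only genes above a minimum mean level were changed in the simulation, so these percentages do not describe the lowest members. Depth was estimated from genes of up to 400 bases. Alternatives were a pseudocount of 0.1, no filter, median-ratio scaling, only the 2 groups compared, a replicate block, and leaving out each library.

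Genes named were the members called in any comparison, those highest in each table, and the listed markers and pathway genes. The members and lists were chosen with earlier results of these data known, and the rows under other symbols were found after the files were read. Sequences and positions are RefSeq's on GRCm38.p6.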

Additional observations from a re-analysis of the deposited data

How the results depend on the processing

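Of the recomputed log2 fold changes of called genes, 331 kept direction and call, 76 kept direction and lost the call, and 0 reversed. For ES_Obox6 against ES_Empty, 2 members were higher, against 1 with a pseudocount of 0.1, 0 with no filter, 1 after median-ratio scaling, 0 with only the 2 groups compared, and 0 to 1 when 1 library was left out. For ES_Obox3 against ES_Obox6, 3 were higher, against 5 after scaling, 5 with only the 2 groups compared, and 2 to 4 with 1 library left out. With 1 library left out, counts were 3 to 5 higher for ES_Obox3 and 2 to 4 higher for ES_Obox5, against ES_Empty. They were 2 to 5 higher and 0 to 1 lower for ES_Dux against ES_Empty, the lower count being 0 after scaling, and 2 to 3 higher and 2 to 5 lower for ES_Obox3 against ES_Dux. Leaving out an ES_Dux library removes Pramef6 and Pramef20 from the genes tested. For SCNT_Obox3_L2C against SCNT_EGFP_L2C, 1 was higher, against 2 with a pseudocount of 0.1, 0 with no filter, 2 after scaling, 0 with only the 2 groups compared, and 0 with any library left out. For SCNT_Obox3_L2C against ICSI_L2C, 1 was higher, against 0 with no filter, 0 with only the 2 groups compared and 0 with any library left out, and 0 to 1 were lower. For SCNT_EGFP_L2C against ICSI_L2C, 3 to 6 were lower with 1 library left out. The cause of the other changes was not tested.

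With the replicate number as a block, 0 members were higher in ES_Obox6 than in ES_Empty, 0 in SCNT_Obox3_L2C than in SCNT_EGFP_L2C and 0 in SCNT_Obox3_L2C than in ICSI_L2C, while 4 were lower in SCNT_EGFP_L2C than in ICSI_L2C. Same-numbered samples had correlated deviations of only 0.014 to 0.0666, so they share a number and no pairing was assumed. At 1 TPM a 1-kb gene rests on few reads, which limits calls on the lowest members, and a pair of libraries per group limits all of them.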
